A study of Saccharomyces cerevisiae with 10 samples.

Results

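The genes described here encode 35 proteins of the small-subunit processome of budding yeast, Saccharomyces cerevisiae, the nucleolar particle in which the precursor of 18S ribosomal RNA is folded and cleaved. They were chosen by name, from the proteins' membership of the particle and by no rule on their values, though earlier results of these data were known. They are the 18 genes named UTP with a number in the list below and 17 further subunits and early factors. All 35 have a row among the 10891 features of the table, of which 5897 are protein-coding genes, and all 35 passed the filter on low densities that left 9666 features for testing.

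The processome assembles on the nascent ribosomal RNA precursor. The UTP-A complex binds the start of the transcript first, UTP-B and the U3 small nucleolar ribonucleoprotein follow, and the U3 RNA pairs with the precursor to guide its folding. Enzymes then cleave and modify the RNA, and the nuclear exosome with its helicase Mtr4 removes the cleaved leader. In yeast the genes for these factors belong to the ribosome biogenesis regulon, whose promoters often carry the PAC and RRPE elements and whose mRNA levels follow growth conditions.

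The UTP-A genes were UTP4 (YDR324C), UTP5 (YDR398W), UTP8 (YGR128C), UTP9 (YHR196W), UTP10 (YJL109C), UTP15 (YMR093W) and NAN1 (YPL126W). The UTP-B genes were PWP2 (YCR057C), UTP6 (YDR449C), DIP2 (YLR129W), UTP13 (YLR222C), UTP18 (YJL069C) and UTP21 (YLR409C). MPP10 (YJR002W), IMP3 (YHR148W) and IMP4 (YNL075W) form the MPP10 complex, and RRP9 (YPR137W) encodes a protein of the U3 particle itself. BMS1 (YPL217C) encodes a GTPase, RCL1 (YOL010W) its partner and EMG1 (YLR186W) a methyltransferase of 18S ribosomal RNA. NOP14 (YDL148C), NOC4 (YPR144C) and ENP1 (YBR247C) were kept as a group of interacting factors. The other 12 subunits were UTP14 (YML093W), RRP5 (YMR229C), UTP22 (YGR090W), UTP20 (YBL004W), SOF1 (YLL011W), UTP7 (YER082C), UTP11 (YKL099C), BUD21 (YOR078W), KRR1 (YCL059C), UTP23 (YOR004W), UTP25 (YIL091C) and UTP30 (YKR060W). The genes lie on 14 chromosomes, each has a single coding exon, and none overlaps another gene on its strand in the RefSeq annotation of R64.

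The study asked which long noncoding RNAs degraded by Xrn1, the main cytoplasmic 5′ to 3′ exoribonuclease, build up when the RNA helicases Dbp2 or Mtr4 are missing. Total RNA freed of ribosomal RNA was sequenced by strand in 10 libraries, 2 biological replicates in each of 5 groups, and the genes described here were measured in all of them. The group xrn1 carried xrn1Δ::kanMX4 in the MATa strain BY4741, next to his3Δ1, leu2Δ0, met15Δ0 and ura3Δ0. The group dbp2 carried dbp2Δ::KanMX6 in a MATa strain labelled BY4741 whose other markers are given as his3Δ0, leu2Δ0, met-, lys? and ura3Δ0. Their control WT was BY4741 with the 4 markers listed for xrn1. The group tet-MTR4-Dox carried kanMX6-tetOFF::MTR4, which places MTR4 under a promoter that doxycycline switches off, in BMA64-1A, a MATa strain with trp1Δ2 and with alleles of ADE2, HIS3, LEU2, URA3 and CAN1. Its control WT-Dox was BMA64-1A without that cassette. Cells of both of these groups received 10 µg/mL of doxycycline for 6 hours, and the other 3 groups were untreated. All cells grew in rich medium (YPD) at 30 °C to an OD600 of 0.5.

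Libraries held 16.0 M to 33.5 M reads on features, of which 1.35% to 3.14% lay on ERCC spike-in RNAs, and each processome gene had between 450 and 28270 reads in a library, with a median gene at 1946 to 4252 reads. XRN1 density was 0.102 and 0.106 in xrn1 against 2.49 and 2.28 in WT, DBP2 density 0.00313 and 0.00326 in dbp2 against 3.49 and 3.41 in WT, and MTR4 density 0.429 and 0.469 in tet-MTR4-Dox against 1.49 and 1.30 in WT-Dox. These genes differed outside their own mutant as well. XRN1 density was 1.59 and 1.57 in dbp2 and 1.32 and 1.20 in WT-Dox. DBP2 density was 9.14 and 9.11 in tet-MTR4-Dox against 3.95 and 3.85 in WT-Dox, and MTR4 density was 2.35 and 2.37 in xrn1 against 1.61 and 1.51 in WT. LYS2 density was 0.000502 and 0.000349 in dbp2 against 1.10 and 0.999 in WT, and MET17 density, the gene also called MET15, was 1.75 and 1.64 in dbp2 against 0.00125 and 0.000477 in WT. TRP1 density was 0.129 and 0.128 in tet-MTR4-Dox against 0 and 0.000690 in WT-Dox. These marker differences cannot be told apart from the DBP2 deletion or the MTR4 shut-off in the comparisons that follow.

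Values are normalized densities, reads per base of a row scaled so that spike-in RNAs have equal levels, and they can be compared between genes because they are per length. Changes were read on a pair of scales. The spike-in scale keeps the deposited densities, and the relative scale first divides each library by a factor. For each protein-coding gene tested, the log2 level in the library was compared with the gene's mean log2 level over all libraries. The factor is the median of these differences, taken back from log2, and not the density of the median gene. Changes are log2 differences of density plus 0.00626, with the SE and the Benjamini-Hochberg adjusted p of a limma fit over all 9666 features and 10 libraries; "rose" and "fell" stand for an adjusted p under 0.05. With 2 replicates a group, these p-values set each change against the spread between replicate libraries, pooled over the 5 groups. In bulk RNA a change per spike-in cannot separate fewer cells from less RNA per cell.

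The promoters of these genes were read from the R64 genome as the 250 bases before each start codon, and they are shown because the letters of both regulon elements recur in them. PAC was searched as GATGAG and RRPE as AAAATTTT on both strands, and the 2 motifs cannot overlap each other. PAC was found in 30 of the 35 windows (85.7%), against 1022 of 6001 windows of protein-coding genes (17.0%). RRPE was found in 25 windows (71.4%), against 519 of 6001 (8.65%), and both motifs in 23 windows (65.7%), against 245 of 6001 (4.08%). The windows of EMG1, UTP22 and UTP30 held neither, as did 78.4% of all windows. The 44 PAC matches in the set began a median of 106.5 bases before the start codon and the 30 RRPE matches a median of 131 bases before it. The bases from 250 to 101 before the start codon are printed for RRP5, BMS1, UTP20 and UTP11, the genes at the ends of the changes below, and for UTP22, which lacks both motifs. They are written on the coding strand with every PAC and RRPE match in capitals. These stretches lie at chrXIII:731224-731373 (minus strand), chrXVI:143272-143421 (minus), chrII:227386-227535 (plus), chrXI:256573-256722 (minus) and chrVII:662108-662257 (plus) of R64, credited to RefSeq.
RRP5: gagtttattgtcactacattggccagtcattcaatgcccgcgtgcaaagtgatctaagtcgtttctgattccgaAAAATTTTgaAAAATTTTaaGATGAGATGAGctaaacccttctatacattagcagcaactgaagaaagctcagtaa
BMS1: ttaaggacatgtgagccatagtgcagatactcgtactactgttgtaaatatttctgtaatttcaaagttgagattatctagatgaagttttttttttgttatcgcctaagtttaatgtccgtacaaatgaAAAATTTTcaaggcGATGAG
UTP20: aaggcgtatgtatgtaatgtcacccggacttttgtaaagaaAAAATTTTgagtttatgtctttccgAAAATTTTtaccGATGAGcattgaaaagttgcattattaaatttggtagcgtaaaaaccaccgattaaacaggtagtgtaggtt
UTP11: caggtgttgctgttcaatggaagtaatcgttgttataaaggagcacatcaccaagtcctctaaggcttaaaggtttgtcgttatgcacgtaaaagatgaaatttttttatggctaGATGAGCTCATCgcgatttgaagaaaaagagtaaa
UTP22: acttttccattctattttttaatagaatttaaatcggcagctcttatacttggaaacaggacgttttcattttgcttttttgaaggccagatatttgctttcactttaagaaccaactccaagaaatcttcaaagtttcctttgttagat
RRP5 and UTP20 each hold a pair of RRPE matches upstream of PAC, and in RRP5 a pair of PAC matches shares letters. UTP11 holds PAC on both strands, next to each other, and no RRPE. A match is a description of these letters only.

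In WT the densities of the 35 genes were led by RRP5, a factor needed for both ribosomal subunits, at 2.99 and 2.83. EMG1 (1.58 and 1.55), KRR1 (1.63 and 1.49) and UTP10 (1.60 and 1.47) came next, and the values of these 3 overlapped or lay within each other's spread. UTP14, the activator of the helicase Dhr1, was lowest in every group, with densities of 0.298 and 0.305 in the xrn1 libraries, 0.387 and 0.362 in the dbp2 libraries, 0.149 and 0.155 in WT, 0.346 and 0.344 in tet-MTR4-Dox and 0.169 and 0.146 in WT-Dox. RRP5 also led in WT-Dox, while the highest density belonged to EMG1 in xrn1 (5.17 and 5.04), to BUD21 in dbp2 (3.31 and 3.20) and to UTP20 in tet-MTR4-Dox (4.13 and 3.84). The median gene of the set had densities of 2.46 and 2.42 in the xrn1 libraries, 1.51 and 1.46 in the dbp2 libraries, 0.961 and 0.900 in WT, 2.01 and 2.08 in tet-MTR4-Dox and 1.07 and 0.977 in WT-Dox. The median protein-coding gene had 1.58 and 1.58 in the xrn1 libraries, 0.691 and 0.662 in the dbp2 libraries, 0.387 and 0.360 in WT, 0.608 and 0.611 in tet-MTR4-Dox and 0.344 and 0.319 in WT-Dox.

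**Figure D1:**
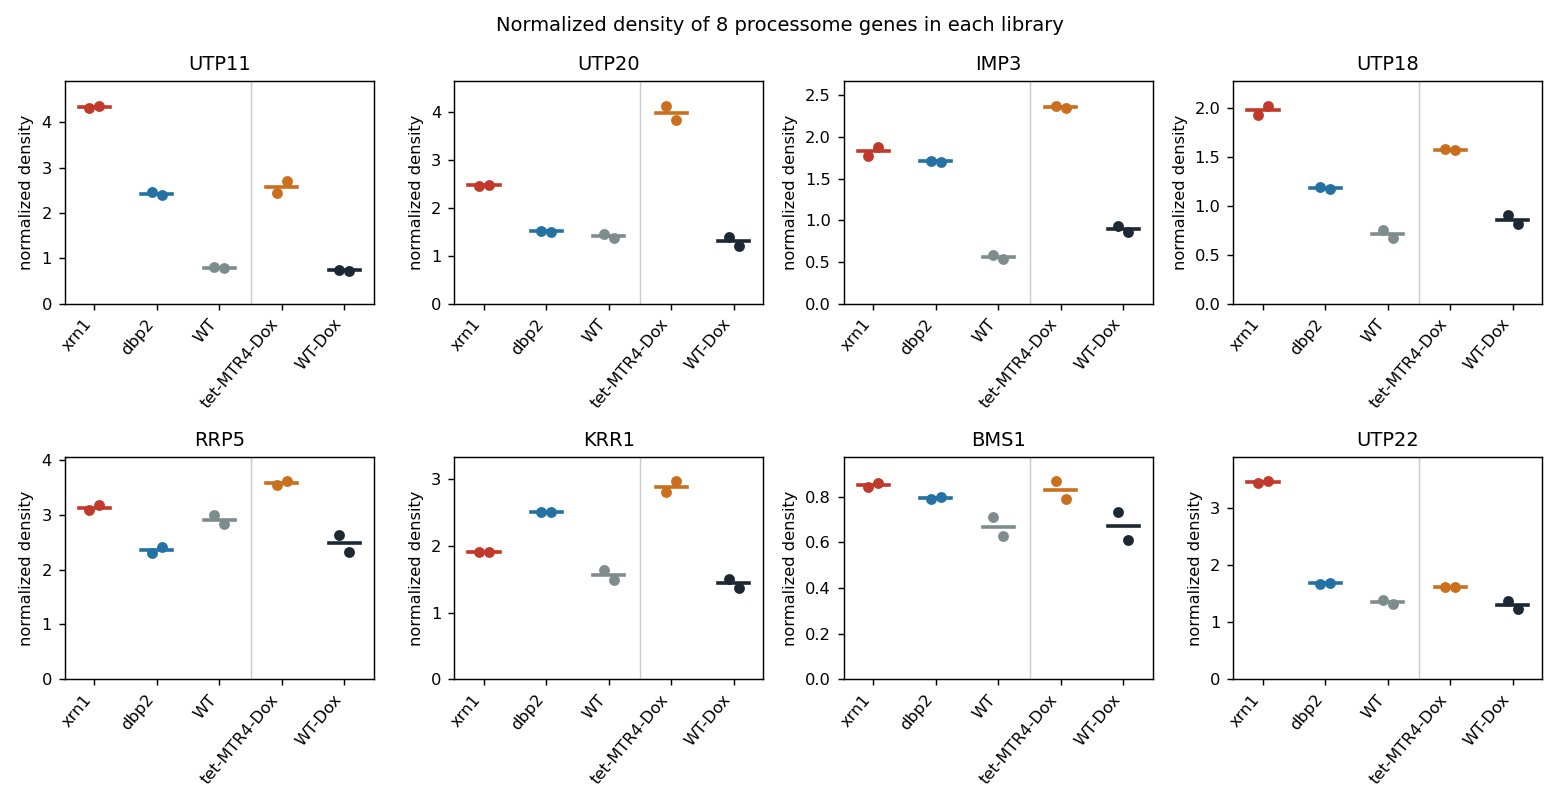
Normalized density (linear axis from 0) of 8 processome genes, with 1 point per library and a bar at the mean of the 2 libraries of each group. UTP11 is higher in all 3 mutants than in its control, UTP20 stands out in tet-MTR4-Dox, and RRP5 in dbp2 lies below both WT libraries.

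Nearly every processome mRNA rose per spike-in RNA in xrn1, 30 of the 35 by less than the median protein-coding gene. On the spike-in scale 34 of the 35 genes rose and none fell in xrn1 against WT, with a median change of 1.40, while 98.3% of the 5613 protein-coding genes tested rose, 0.356% fell, and their median was 1.90. On the relative scale 30 genes fell and 5 rose, with a median of -0.48, against 39.7% of protein-coding genes that fell, 43.6% that rose and a median of 0.05. The relative densities of xrn1 and WT libraries did not overlap for any of the 35 genes, as for 93.2% of protein-coding genes. Of the 35, 5 lay higher in xrn1 and 30 lower, next to 48.8% and 44.4% of protein-coding genes. All 6 UTP-B genes, all 3 MPP10 complex genes and RRP9 fell on the relative scale, as did 6 of 7 UTP-A genes. As a share of the reads on protein-coding genes, however, the set made up 0.637% and 0.652% in xrn1 against 0.649% and 0.636% in WT, values that overlap. As a share of protein-coding density it was higher in xrn1, at 0.391% and 0.401% against 0.330% and 0.321% in WT, without overlap. The relative scale rests on a median over protein-coding genes, and a share rests on a sum, in which abundant mRNAs weigh most. Why these measures differ was not tested. Over the 5613 protein-coding genes the relative change in xrn1 went down with mean density (Spearman's rank correlation -0.45). The median gene of the set lay above the median protein-coding gene in density, and the percentages of protein-coding genes given here are not matched for density.

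In xrn1 RRP5 had the smallest change of the set per spike-in and the lowest on the relative scale. RRP5 densities were 3.08 and 3.18 in the xrn1 libraries and 2.31 and 2.42 in the dbp2 libraries, against 2.99 and 2.83 in WT; under doxycycline they were 3.55 and 3.61 in tet-MTR4-Dox, against 2.63 and 2.32 in WT-Dox. Its change in xrn1 on the spike-in scale was 0.11 ± 0.06 (limma adjusted p = 0.133), and on the relative scale it was -1.78 ± 0.05 (limma adjusted p = 5.79e-09), at the 1.0 percentile of protein-coding genes. The xrn1 libraries lay above both WT libraries in density, by little.

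KRR1 encodes a protein with an RNA-binding KH domain that joins the particle early. KRR1 densities were 1.91 and 1.90 in the xrn1 libraries and 2.50 and 2.50 in the dbp2 libraries, against 1.63 and 1.49 in WT; under doxycycline they were 2.81 and 2.96 in tet-MTR4-Dox, against 1.50 and 1.37 in WT-Dox. On the relative scale KRR1 changed by -1.59 ± 0.03 in xrn1 (limma adjusted p = 4.05e-09), -0.11 ± 0.03 in dbp2 and 0.18 ± 0.03 in tet-MTR4-Dox, where it was below 0 when libraries were scaled on all features. The xrn1 change was lower than the change in each of the other mutants by the tests of the difference given below. BMS1, the GTPase gene, had densities of 0.840 and 0.858 in the xrn1 libraries and 0.790 and 0.798 in the dbp2 libraries, against 0.710 and 0.626 in WT; under doxycycline they were 0.866 and 0.789 in tet-MTR4-Dox, against 0.731 and 0.610 in WT-Dox. Its relative change in xrn1 was -1.52 ± 0.07 (limma adjusted p = 1.04e-07). NOP14 densities were 1.58 and 1.67 in the xrn1 libraries and 1.33 and 1.32 in the dbp2 libraries, against 1.00 and 0.900 in WT; under doxycycline they were 1.36 and 1.30 in tet-MTR4-Dox, against 0.848 and 0.698 in WT-Dox. It fell on the relative scale in xrn1 (-1.11 ± 0.06, limma adjusted p = 4.8e-07), and all 3 of these genes were higher in density in both xrn1 libraries than in both WT libraries.

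The 5 genes that rose on both scales in xrn1 were UTP11, UTP30, NOC4, RCL1 and UTP15. UTP11 had densities of 4.31 and 4.36 in the xrn1 libraries and 2.46 and 2.39 in the dbp2 libraries, against 0.799 and 0.776 in WT; under doxycycline they were 2.45 and 2.71 in tet-MTR4-Dox, against 0.736 and 0.725 in WT-Dox. It was 5.47-fold higher in xrn1 than in WT per spike-in, and its relative change was 0.57 ± 0.05 (limma adjusted p = 5.48e-06). UTP30, a nonessential subunit related to a large-subunit ribosomal protein, had densities of 2.71 and 2.63 in the xrn1 libraries and 1.20 and 1.18 in the dbp2 libraries, against 0.583 and 0.550 in WT; under doxycycline they were 1.08 and 1.03 in tet-MTR4-Dox, against 0.552 and 0.457 in WT-Dox, and its relative change in xrn1 was 0.34 ± 0.05 (limma adjusted p = 0.000397). NOC4, whose protein partners Nop14, had densities of 3.18 and 3.08 in the xrn1 libraries and 1.26 and 1.17 in the dbp2 libraries, against 0.714 and 0.689 in WT; under doxycycline they were 1.63 and 1.59 in tet-MTR4-Dox, against 0.909 and 0.833 in WT-Dox. Its relative change was 0.27 ± 0.04 in xrn1, next to -1.11 ± 0.06 for the partner's gene NOP14. RCL1 densities were 3.55 and 3.45 in the xrn1 libraries and 1.44 and 1.40 in the dbp2 libraries, against 0.841 and 0.789 in WT; under doxycycline they were 1.76 and 1.73 in tet-MTR4-Dox, against 0.909 and 0.968 in WT-Dox, with a relative change of 0.21 ± 0.06 in xrn1 against -1.52 ± 0.07 for BMS1, whose protein binds Rcl1.

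**Figure D2:**
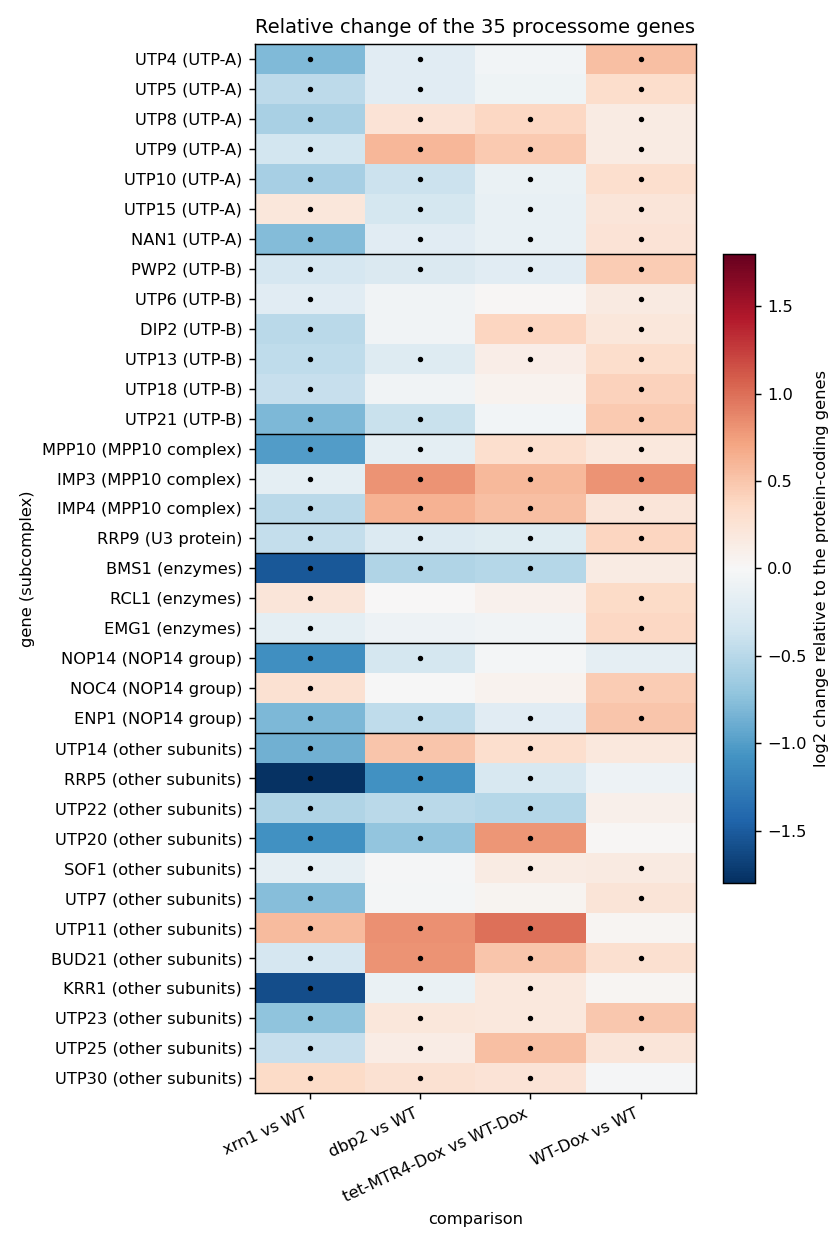
Relative log2 change (color, from -1.8 to 1.8) of each of the 35 genes, ordered by subcomplex, in 4 comparisons; a dot marks a limma adjusted p under 0.05. The xrn1 column is mostly blue, with 30 genes that fell, and the WT-Dox column holds 26 genes that rose and none that fell.

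In dbp2 the set held genes that rose and genes that fell on the relative scale, as did protein-coding genes. The SD of the relative changes was 0.43 in the set and 0.86 over protein-coding genes, with medians of -0.08 and 0.02. On the spike-in scale 33 of 35 genes rose and 1 fell in dbp2 against WT, with a median of 0.71, next to 83.9% of protein-coding genes that rose, 7.86% that fell and a median of 0.81. On the relative scale 10 genes rose and 17 fell, with a median of -0.08, next to 40.9% of protein-coding genes that rose and 38.9% that fell, so that the share that rose lay below and the share that fell above that of protein-coding genes. Of the reads on protein-coding genes the set held 0.776% and 0.799% in dbp2 against 0.649% and 0.636% in WT, without overlap. The comparison shares its WT libraries with that of xrn1.

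The genes with the highest relative changes in dbp2 were UTP11, IMP3, BUD21 and IMP4. UTP11 changed by 0.82 ± 0.05 (limma adjusted p = 7.84e-07). IMP3, a subunit that helps U3 RNA to pair with its target, had densities of 1.78 and 1.88 in the xrn1 libraries and 1.71 and 1.70 in the dbp2 libraries, against 0.580 and 0.541 in WT; under doxycycline they were 2.37 and 2.35 in tet-MTR4-Dox, against 0.930 and 0.853 in WT-Dox, and its relative change in dbp2 was 0.81 ± 0.04 (limma adjusted p = 2.75e-07). IMP4, of the same complex, had densities of 2.23 and 2.37 in the xrn1 libraries and 2.29 and 2.37 in the dbp2 libraries, against 0.869 and 0.870 in WT; under doxycycline they were 2.43 and 2.27 in tet-MTR4-Dox, against 0.950 and 0.872 in WT-Dox and a relative change of 0.62 ± 0.06 in dbp2 (limma adjusted p = 1.83e-05). The third subunit gene of the complex moved the other way. MPP10 densities were 1.83 and 1.80 in the xrn1 libraries and 1.57 and 1.46 in the dbp2 libraries, against 1.00 and 0.965 in WT; under doxycycline they were 2.201 and 2.21 in tet-MTR4-Dox, against 1.08 and 0.943 in WT-Dox, and its relative change in dbp2 was -0.17 ± 0.04 (limma adjusted p = 0.00327), although both dbp2 libraries were above both WT libraries in density. BUD21, a nonessential subunit, had densities of 3.12 and 3.29 in the xrn1 libraries and 3.31 and 3.20 in the dbp2 libraries, against 1.11 and 1.03 in WT; under doxycycline they were 3.01 and 2.90 in tet-MTR4-Dox, against 1.21 and 1.15 in WT-Dox. It was 3.03-fold higher in dbp2 than in WT per spike-in, with a relative change of 0.81 ± 0.04 (limma adjusted p = 3.13e-07).

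RRP5 fell in dbp2 on both scales, with a change of -0.30 ± 0.06 per spike-in (limma adjusted p = 0.00119) and -1.10 ± 0.05 on the relative scale (limma adjusted p = 9.28e-08). Both dbp2 libraries lay below both WT libraries. UTP20, the longest protein of the set and a repeat protein that spans much of the particle, had densities of 2.46 and 2.48 in the xrn1 libraries and 1.52 and 1.50 in the dbp2 libraries, against 1.46 and 1.38 in WT; under doxycycline they were 4.13 and 3.84 in tet-MTR4-Dox, against 1.39 and 1.21 in WT-Dox. Per spike-in its change in dbp2 did not pass the test (0.09 ± 0.07, limma adjusted p = 0.255), and its relative change was -0.71 ± 0.05 (limma adjusted p = 2.25e-06). BMS1 changed by -0.54 ± 0.07 and UTP22 by -0.48 ± 0.04 on the relative scale in dbp2. The spike-in call of BMS1 in dbp2 (0.25 ± 0.09) was lost without WT replicate 2 (0.16), without dbp2 replicate 1 (0.26) and without dbp2 replicate 2 (0.24). UTP22 densities were 3.44 and 3.47 in the xrn1 libraries and 1.67 and 1.70 in the dbp2 libraries, against 1.39 and 1.32 in WT; under doxycycline they were 1.62 and 1.62 in tet-MTR4-Dox, against 1.37 and 1.24 in WT-Dox, and all 6 mutant libraries lay above their controls. UTP25, which rose on the relative scale by 0.14 ± 0.04 in dbp2, was below 0 when libraries were scaled on the median of all features.

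**Figure D3:**
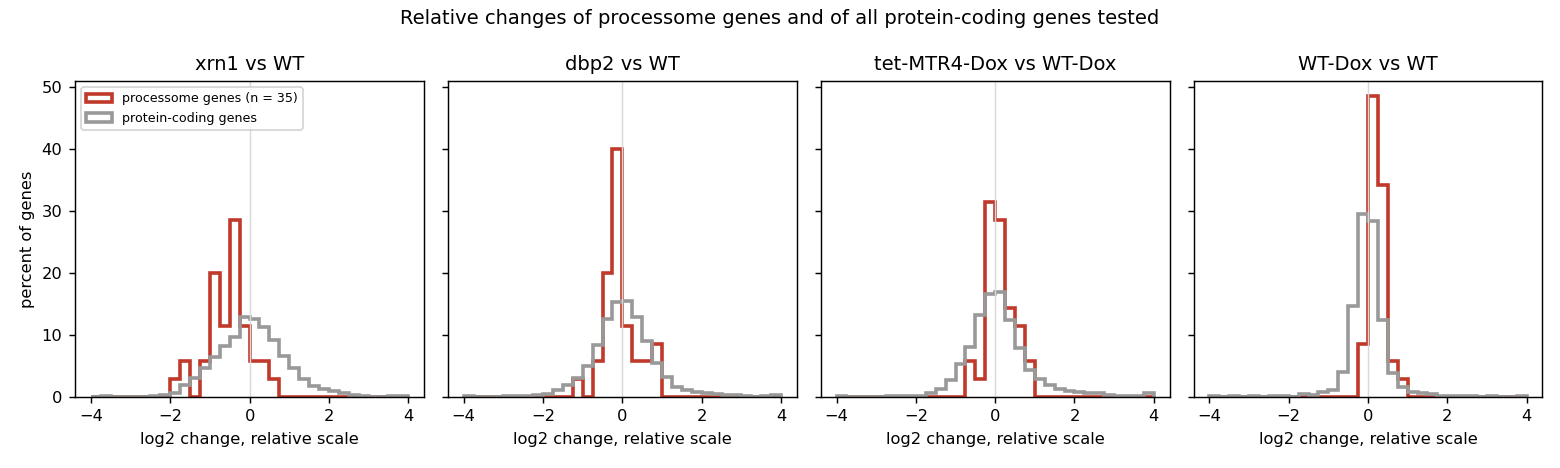
Percent of genes in bins of 0.25 of relative log2 change, for the 35 processome genes (red) and the 5613 protein-coding genes tested (grey), with values beyond 4 in either direction placed in the end bins. In xrn1 the processome genes sit left of the protein-coding genes (medians -0.48 and 0.05), and in WT-Dox right of them (medians 0.22 and -0.01).

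All 35 genes rose per spike-in in tet-MTR4-Dox. The median change in tet-MTR4-Dox against WT-Dox was 0.88, while 86.6% of protein-coding genes rose, 5.47% fell, and their median was 0.84. On the relative scale 16 genes rose and 9 fell, with a median of 0.06, next to 41.7% of protein-coding genes that rose and 39.1% that fell. When libraries were scaled on the median of all features, noncoding ones included, all changes in this comparison shifted by -0.55, and then 2 genes rose and 28 fell, next to 14.5% of protein-coding genes that rose and 72.3% that fell under that scaling. The set held 1.17% and 1.13% of reads on protein-coding genes in tet-MTR4-Dox against 0.735% and 0.698% in WT-Dox, without overlap.

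The rises were led by UTP11 and UTP20, which were also above 0 when scaled on all features. UTP11 was 3.50-fold higher in tet-MTR4-Dox than in WT-Dox per spike-in, with a relative change of 0.99 ± 0.05 (limma adjusted p = 1.01e-07). UTP20 was 3.06-fold higher per spike-in, with a relative change of 0.80 ± 0.05 (limma adjusted p = 4.15e-07), and its tet-MTR4-Dox libraries had the highest densities that this gene reached in any library. All 3 MPP10 complex genes rose on the relative scale, IMP3 by 0.58 ± 0.04, IMP4 by 0.54 ± 0.06 and MPP10 by 0.31 ± 0.04, but scaling on all features gave 0.027, -0.013 and -0.25. UTP25, a helicase-like subunit, had densities of 1.98 and 1.98 in the xrn1 libraries and 1.40 and 1.34 in the dbp2 libraries, against 0.745 and 0.688 in WT; under doxycycline they were 2.01 and 1.89 in tet-MTR4-Dox, against 0.790 and 0.721 in WT-Dox. Its relative change in tet-MTR4-Dox was 0.54 ± 0.04 (limma adjusted p = 1.46e-06), against -0.012 when scaled on all features.

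BMS1, UTP22, RRP5 and RRP9 were lowest on the relative scale in tet-MTR4-Dox. BMS1 changed by -0.51 ± 0.07 (limma adjusted p = 9.55e-05) and UTP22 by -0.51 ± 0.04 (limma adjusted p = 1.12e-06). The spike-in rise of BMS1 (0.31 ± 0.09, limma adjusted p = 0.00888) was lost without WT-Dox replicate 2 (0.18) and without tet-MTR4-Dox replicate 1 (0.24). RRP9 densities were 2.34 and 2.41 in the xrn1 libraries and 1.28 and 1.25 in the dbp2 libraries, against 0.892 and 0.837 in WT; under doxycycline they were 1.55 and 1.53 in tet-MTR4-Dox, against 1.06 and 0.977 in WT-Dox, and its relative change was -0.22 ± 0.03 (limma adjusted p = 0.000196). UTP18, the UTP-B subunit that docks Mtr4 to the particle, had densities of 1.94 and 2.03 in the xrn1 libraries and 1.19 and 1.17 in the dbp2 libraries, against 0.754 and 0.675 in WT; under doxycycline they were 1.58 and 1.57 in tet-MTR4-Dox, against 0.904 and 0.814 in WT-Dox. It was 1.83-fold higher per spike-in in tet-MTR4-Dox, and its relative change of 0.06 ± 0.04 did not pass the test (limma adjusted p = 0.215) and was -0.50 when scaled on all features.

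The small nucleolar RNAs of the processome were measured in the same libraries. U3 RNA, from the near-identical copies snR17a and snR17b, had densities of 1868 and 1866 for snR17a in tet-MTR4-Dox against 534 and 479 in WT-Dox, but reads of the 2 copies may be split between them arbitrarily. On the spike-in scale snR17a was 3.69-fold and snR17b 3.17-fold higher (limma adjusted p = 1.69e-07 and 1.5e-08). U14 RNA (snR128) had 590.1 and 547 in tet-MTR4-Dox against 60.7 and 53.9 in WT-Dox, a 9.94-fold difference, while snR30 and snR10 were 2.90-fold and 3.51-fold higher. All 5 RNAs also rose on the relative scale there, from 0.71 ± 0.10 for snR30 to 2.49 ± 0.21 for snR128. Scaling on all features shifts this comparison by -0.55, and calls under that scaling are not given for these RNAs. Of protein-coding genes 86.6% rose there per spike-in and 41.7% on the relative scale. The median change over all features tested, noncoding ones included, was 1.36 per spike-in and 0.58 on the relative scale. The relative change of snR30 lay close to that median. Shares called over all features or over all small nucleolar RNAs are not given here. All 5 also rose per spike-in in dbp2 against WT, next to 83.9% of protein-coding genes. The rises were 2.31-fold for snR128, 2.35-fold for snR10, 1.61-fold for snR17a, 1.35-fold for snR17b and 1.24-fold for snR30. In log2, those of snR128 (1.21) and snR10 (1.23) lay above the median of all features tested (0.94). Those of snR17a (0.69), snR17b (0.44) and snR30 (0.31) lay below it. On the relative scale in dbp2, snR10 rose (0.43 ± 0.13), snR17b (-0.36 ± 0.09) and snR30 (-0.49 ± 0.10) fell, and snR17a and snR128 did not pass the test. In xrn1 against WT the spike-in changes of snR17a (0.12 ± 0.13, limma adjusted p = 0.384) and snR10 (-0.26 ± 0.13, limma adjusted p = 0.0728) did not pass the test, while snR17b (-0.27 ± 0.09), snR30 (-0.20 ± 0.08) and snR128 (-0.73 ± 0.20) fell. On the relative scale all 5 fell in xrn1, from -1.76 ± 0.17 for snR17a to -2.61 ± 0.21 for snR128, next to 39.7% of protein-coding genes. The snR128 densities were 62.8 and 36.7 in the xrn1 libraries and 199 and 169 in the dbp2 libraries, against 79.0 and 79.9 in WT.

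WT-Dox against WT compares the 2 strain backgrounds and the doxycycline treatment together, which cannot be told apart. On the spike-in scale 11 of 35 genes rose and 2 fell, next to 13% of protein-coding genes that rose and 41.2% that fell, and the median change was 0.08, against -0.15 for protein-coding genes. On the relative scale 26 rose and none fell in the limma fit, next to 27.4% of protein-coding genes that rose and 29.5% that fell. The relative median was 0.22, and 32 of the 35 changes were above the protein-coding median of -0.01. All 7 UTP-A and all 6 UTP-B genes rose on the relative scale, UTP6 only at the threshold (0.16 ± 0.06, limma adjusted p = 0.0497). The set held 0.735% and 0.698% of reads on protein-coding genes in WT-Dox against 0.649% and 0.636% in WT, without overlap.

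IMP3 led this comparison, with a relative change of 0.81 ± 0.04 (limma adjusted p = 1.2e-06). UTP4, ENP1 and UTP23 followed. UTP4 densities were 2.16 and 2.22 in the xrn1 libraries and 1.57 and 1.51 in the dbp2 libraries, against 1.07 and 0.982 in WT; under doxycycline they were 2.29 and 2.29 in tet-MTR4-Dox, against 1.42 and 1.27 in WT-Dox, and its relative change in WT-Dox was 0.53 ± 0.03 (limma adjusted p = 5.76e-06). ENP1, a factor that stays on the small subunit until late in its export, had densities of 2.03 and 2.08 in the xrn1 libraries and 1.27 and 1.20 in the dbp2 libraries, against 1.03 and 0.918 in WT; under doxycycline they were 1.96 and 1.85 in tet-MTR4-Dox, against 1.32 and 1.17 in WT-Dox and a relative change of 0.50 ± 0.05. UTP23, which is needed for release of snR30, had densities of 1.77 and 1.83 in the xrn1 libraries and 1.59 and 1.63 in the dbp2 libraries, against 0.854 and 0.761 in WT; under doxycycline they were 2.01 and 2.10 in tet-MTR4-Dox, against 1.07 and 0.968 in WT-Dox and a relative change of 0.48 ± 0.04. The WT-Dox libraries of all 4 genes lay above both WT libraries in density. NOP14 and RRP5 fell per spike-in (-0.30 ± 0.09 and -0.23 ± 0.06), and both calls were lost without WT replicate 1 (-0.22 and -0.19) and without WT-Dox replicate 2 (-0.16 and -0.15). IMP4 rose by 0.21 ± 0.06 on the relative scale, which was lost without WT replicate 1 (0.16), WT-Dox replicate 1 (0.20) or WT-Dox replicate 2 (0.22). Without WT-Dox replicate 1, NOP14 fell on the relative scale (-0.24), and 4 genes fell per spike-in. The spike-in median ranged from 0.01 to 0.15 with 1 library left out.

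The remaining subunits are given by their relative changes. Within UTP-A, UTP8 and UTP9 rose in dbp2 (0.24 ± 0.04 and 0.60 ± 0.03) while the other 5 genes fell, from -0.39 for UTP10 to -0.21 for UTP4. The same 2 genes rose in tet-MTR4-Dox (0.37 ± 0.04 and 0.47 ± 0.03), where UTP10 (-0.12 ± 0.04), UTP15 (-0.14 ± 0.03) and NAN1 (-0.14 ± 0.05) fell and UTP4 and UTP5 did not pass the test. In xrn1 UTP8 (-0.59 ± 0.04), UTP9 (-0.32 ± 0.03), UTP5 (-0.47 ± 0.04), UTP10 (-0.60 ± 0.04) and NAN1 (-0.78 ± 0.05) fell. Within UTP-B, a complex built largely of WD-repeat proteins, PWP2 (-0.27 ± 0.04), UTP13 (-0.23 ± 0.04) and UTP21 (-0.41 ± 0.04) fell in dbp2, and UTP6, DIP2 and UTP18 did not pass the test there. In tet-MTR4-Dox DIP2 (0.39 ± 0.03) and UTP13 (0.12 ± 0.04) rose and PWP2 fell (-0.20 ± 0.04). EMG1 fell in xrn1 (-0.18 ± 0.04), and its changes in dbp2 (-0.08 ± 0.04) and tet-MTR4-Dox (-0.06 ± 0.04) did not pass the test. UTP14, the gene of lowest density, fell in xrn1 (-0.87 ± 0.07) and rose in dbp2 (0.49 ± 0.07) and tet-MTR4-Dox (0.31 ± 0.07). The WD-repeat genes SOF1 and UTP7 fell in xrn1 (-0.17 ± 0.04 and -0.76 ± 0.03), and in tet-MTR4-Dox SOF1 rose (0.15 ± 0.04) while UTP7 did not pass the test (0.04 ± 0.03). The tet-MTR4-Dox changes of UTP8, UTP9, DIP2, UTP13, UTP14 and SOF1 were all below 0 when libraries were scaled on all features.

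The mutants were also compared with each other, gene by gene. In xrn1 against dbp2, on the relative scale, 28 genes were lower and 3 higher, with a median of -0.41, next to 38.9% of protein-coding genes that were lower and 42.3% that were higher. KRR1 (-1.48 ± 0.03) and UTP14 (-1.36 ± 0.07) were lowest, and UTP15 (0.52 ± 0.03), NOC4 (0.28 ± 0.04) and RCL1 (0.21 ± 0.06) were the 3 that were higher. The call of RCL1 was lost without dbp2 replicate 1 (0.20). UTP15 densities were 4.54 and 4.60 in the xrn1 libraries and 1.51 and 1.47 in the dbp2 libraries, against 1.10 and 1.03 in WT; under doxycycline they were 1.78 and 1.82 in tet-MTR4-Dox, against 1.15 and 1.08 in WT-Dox, and its xrn1 libraries stood far above all others.

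The change in tet-MTR4-Dox, taken minus the change in xrn1, was higher for 28 genes and lower for 2, with a median of 0.74, next to 38.9% and 36% of protein-coding genes. UTP20 (1.88 ± 0.07), KRR1 (1.77 ± 0.05) and RRP5 (1.49 ± 0.06) had the largest differences, and UTP15 (-0.35 ± 0.04) and NOC4 (-0.20 ± 0.05) were the 2 lower ones. Scaled on all features, the difference was higher for 18 genes and lower for 9, with a median of 0.26, next to 18% and 61.7% of protein-coding genes. On the relative scale, 14 genes fell in xrn1 and rose in tet-MTR4-Dox, 8 fell in both, 2 (UTP11 and UTP30) rose in both and 1 (UTP15) rose in xrn1 and fell in tet-MTR4-Dox. The same 4 patterns were shown by 9.12%, 24.2%, 25.1% and 9.8% of protein-coding genes. Of the 16 genes that rose in tet-MTR4-Dox, 13 were below 0 when scaled on all features, and UTP11, UTP20 and IMP3 were not. Minus the change in dbp2, the change in tet-MTR4-Dox was higher for 16 genes and lower for 3, with a median of 0.13, next to 32.7% and 29.3% of protein-coding genes. UTP20 (1.50 ± 0.07) and RRP5 (0.81 ± 0.06) led, and BUD21 (-0.30 ± 0.06), IMP3 (-0.22 ± 0.06) and UTP9 (-0.13 ± 0.04) were lower. Scaled on all features this count was 2 higher and 24 lower, next to 11.5% and 65.7% of protein-coding genes.

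**Figure D4:**
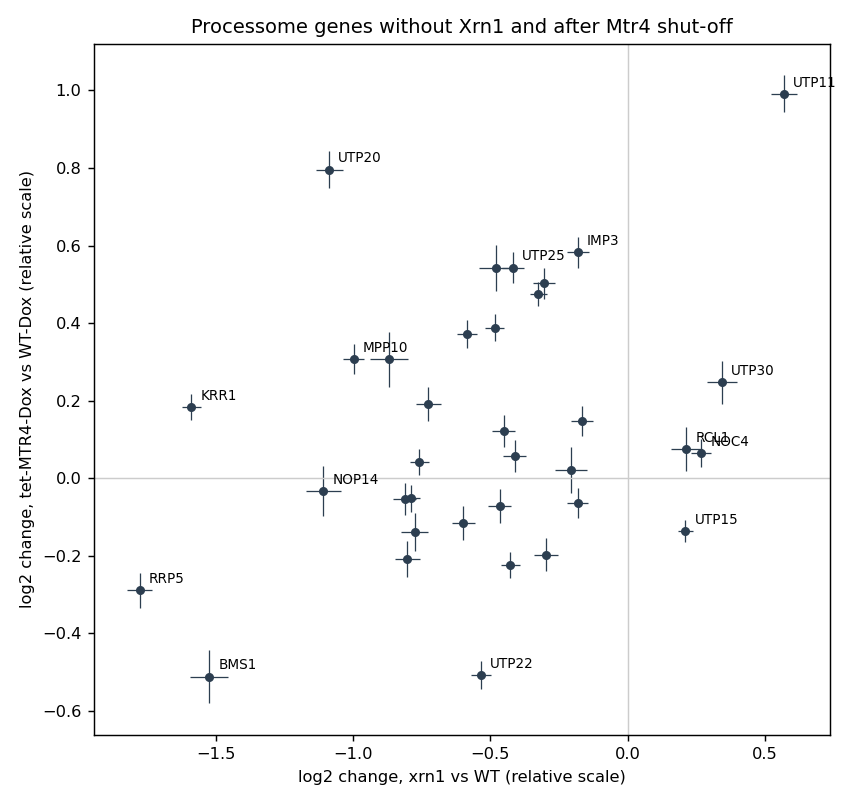
Relative log2 change of the 35 genes in tet-MTR4-Dox against WT-Dox (y axis) and in xrn1 against WT (x axis), with bars of 1 SE from the limma fit and 14 genes named. UTP20 (x -1.09, y 0.80) and KRR1 (x -1.59, y 0.18, but below 0 when scaled on all features) lie far left and above 0, UTP11 lies top right and RRP5 bottom left.

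Gene length went with the relative changes inside the set. Rows were 737 to 7689 bases long (median 1977), from 51 to 387 bases longer than the coding sequence. Spearman's rank correlation of row length and relative change over the 35 genes was -0.59 in xrn1, -0.70 in dbp2 and -0.40 in tet-MTR4-Dox, while over the 5613 protein-coding genes it was -0.01, -0.30 and -0.17. Short genes such as UTP11 (922 bases) and IMP3 (921 bases) lay high in dbp2, and RRP5 (5377 bases) and UTP20 (7689 bases) lay low there. Against this order, UTP20 was high in tet-MTR4-Dox and KRR1 (1105 bases) was low in xrn1. With mean density over the libraries, the correlation over the 35 genes was 0.02 in xrn1, -0.10 in dbp2 and 0.06 in tet-MTR4-Dox. Over the 5613 protein-coding genes it was -0.45, -0.43 and -0.47. In WT-Dox against WT these values were -0.14 for the set and 0.11 for protein-coding genes. The percentages of protein-coding genes set beside the 35 genes are not matched for density. The genes share libraries and depth, the first 2 comparisons share WT, and no test was made of these relations.

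**Figure D5:**
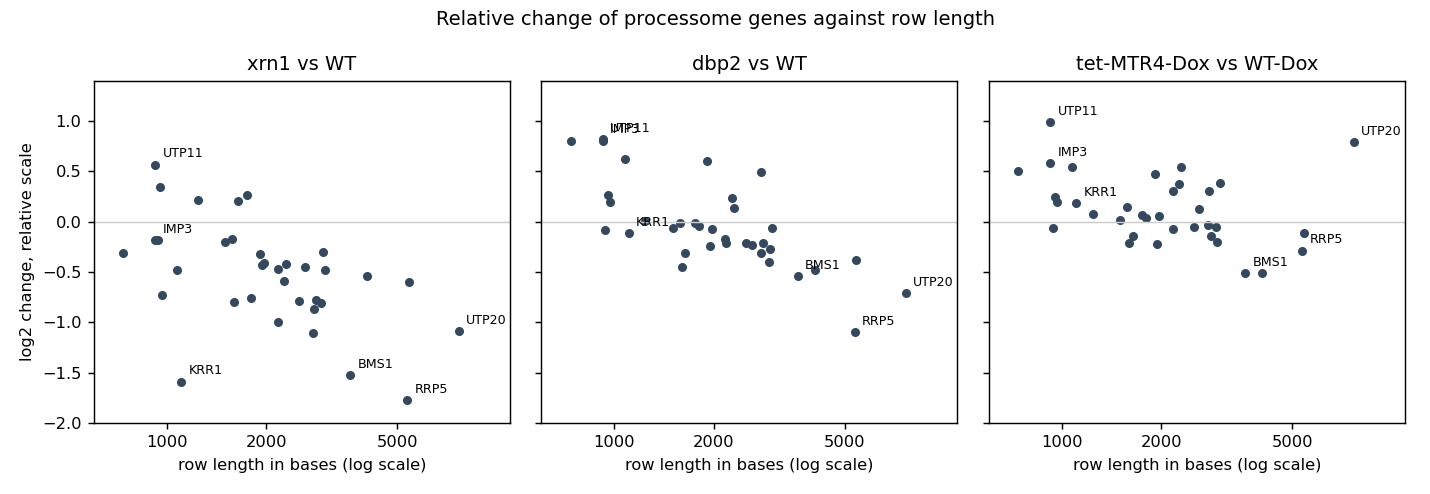
Relative log2 change of each of the 35 genes against the length of its row in bases (log axis) in the 3 mutants, with 6 genes named. Longer genes lie lower in dbp2 (Spearman's rank correlation -0.70), and UTP20, the longest, departs from this in tet-MTR4-Dox.

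Other genes of ribosome assembly were counted in the same fit. The shares of protein-coding genes that rose and fell on the relative scale, against which these counts are to be read, were 43.6% and 39.7% for xrn1, 40.9% and 38.9% for dbp2, 41.7% and 39.1% for tet-MTR4-Dox and 27.4% and 29.5% for WT-Dox against WT. Of 36 other small-subunit processome and early 40S factors, such as those of the box C/D core and the helicases, 33 fell and 3 rose on the relative scale in xrn1, with a median of -0.79, and of 59 factors of 60S assembly 53 fell and 2 rose, with a median of -0.78. Of 16 genes of RNA polymerase I and its initiation factors 7 fell and 8 rose in xrn1 (median 0.10), and of 12 regulators of ribosome biogenesis genes 3 fell and 5 rose (median -0.01). Of 9 late 40S factors 6 fell and none rose in the limma fit (median -0.45). In dbp2 16 of the 36 other small-subunit factors rose and 11 fell on the relative scale, as did 20 and 26 of the 59 factors of 60S assembly, with medians of 0.08 and -0.02; 4 of the 9 late 40S factors rose and 3 fell, 7 of the 16 polymerase I genes rose and 4 fell, and 3 of the 12 regulators rose and 6 fell. In tet-MTR4-Dox 28 of the other small-subunit factors rose and 7 fell (median 0.27), 31 of the 60S factors rose and 9 fell (median 0.14), 5 late 40S factors rose and 2 fell, 8 polymerase I genes rose and 4 fell, and 4 regulators rose and 6 fell (median -0.14). The shift of -0.55 under scaling on all features exceeds each of these tet-MTR4-Dox medians. In WT-Dox against WT, 24 of the other small-subunit factors rose and 3 fell (median 0.21), and 47 of the 60S factors rose and none fell in the limma fit (median 0.28). Of the late 40S factors 5 rose and 1 fell (median 0.15), and 7 polymerase I genes rose and none fell in the limma fit (median 0.14). Of the regulators 2 rose and 5 fell (median -0.13).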

How the data were processed

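RNA was measured in 10 libraries, 2 per group. The deposited table holds normalized densities, which were read as signal. Per the submitters' processing notes, the authors used Trim Galore, HISAT2 2.2.0, featureCounts 2.0.0, DESeq2 and the R64 genome; the role of each is not given in the sources used here. The values show that a density equals whole reads over row length and over a library factor (100% of 10832 rows above 0, tolerance 0.02 reads), with equal ERCC medians. That the factors follow the spike-ins is inferred from the values, and the step at which spike-ins were added is not given in the sources used here. The 5 columns of group means were not used.

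Rows were kept from a mean density of 0.0344 upwards, the 10th percentile. The log2 of density plus 0.00626 (5th percentile of values above 0) was fitted with limma 3.58.1 in R 4.3.3 (lmFit, eBayes with trend, 1 coefficient per group, 5 residual degrees of freedom). The fit was made on densities as deposited and after dividing each library by the factor described above, taken over protein-coding genes. Reads recovered from the densities were used for depth and for limma-voom as an alternative; count models were not the main test, since the step between densities differs with row length. The method was tested on simulated reads drawn with the same dispersion for every group, whereas the replicate spread of the data differed between groups. In that simulation the share of false calls exceeded the nominal level over all features, mostly at low noncoding ones. Among protein-coding genes it did not exceed that level. Replicates of every group differed by more than counting noise. The chi-square per degree of freedom was 3.33 in WT, 4.75 in xrn1, 3.57 in dbp2, 4.58 in WT-Dox and 9.57 in tet-MTR4-Dox. The pooled fit does not model a larger spread in any single group. The promoter windows were read from the R64 genome, because no promoter table was used here. Figures and tables used matplotlib 3.10.9, scipy 1.17.1, pandas 2.3.3 and numpy 2.4.6 in Python 3.11.15. The members and gene lists were chosen with earlier results of these data known. Values in every library are printed for the 4 genes with the highest and the 4 with the lowest relative change in each comparison with a control and for UTP18, RRP9, MPP10, IMP3 and IMP4; those of UTP10, UTP14, UTP15 and EMG1 were added after their values were seen, and other members are given by relative change. Alternatives were other pseudocounts, no filter, voom, scaling on all features, a replicate block and leaving out each library.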

Additional observations from a re-analysis of the deposited data

How the results depend on the processing

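For the 33 counts and medians of the set, 316 of 342 alternative values were classed as unchanged, which allowed some difference in size. For single genes 1052 of 1083 kept their direction and call, whatever their size. Among these, scaling on all features moved UTP20 in tet-MTR4-Dox from 0.80 to 0.24. It moved UTP11 there from 0.99 to 0.44 and RRP5 from -0.29 to -0.84. With pseudocounts 4 times larger or smaller, or with no filter, every count, median and single-gene result was classed as unchanged. Limma-voom on recovered reads gave 1 gene that fell in WT-Dox on the relative scale, against 0, and NOP14 as that gene (-0.16). Scaling on the median of all features shifted relative changes by -0.55 in tet-MTR4-Dox, -0.14 in dbp2, -0.08 in xrn1 and -0.02 in WT-Dox. In tet-MTR4-Dox against WT-Dox it gave 2 genes higher, 28 lower and a median of -0.49, a reversed sign. For the tet-MTR4-Dox change minus that of xrn1 it gave 18 higher, 9 lower and a median of 0.26, and minus that of dbp2 2 higher, 24 lower and a median of -0.29, also reversed. Medians became -0.56 in xrn1, -0.23 in dbp2, 0.20 in WT-Dox and -0.34 in xrn1 against dbp2. UTP18 (-0.50), MPP10 (-0.25), IMP4 (-0.013) and UTP25 (-0.012) changed sign in tet-MTR4-Dox, and UTP20 (-0.0056) in WT-Dox.

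With 1 library left out, medians ranged from 1.37 to 1.46 (xrn1, spike-in), -0.51 to -0.46 (xrn1, relative), 0.82 to 0.95 (tet-MTR4-Dox, spike-in), 0.053 to 0.088 (tet-MTR4-Dox, relative) and 0.093 to 0.146 (tet-MTR4-Dox minus dbp2 change). The number that fell in WT-Dox ranged from 0 to 4 per spike-in and from 0 to 1 on the relative scale. Of the genes without a call in WT-Dox against WT, MPP10 ranged from -0.058 to 0.131 on the spike-in scale, and UTP20 from -0.034 to 0.063 and UTP30 from -0.108 to 0.054 on the relative scale. The cause of these changes was not tested.

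Replicate numbers were not used as pairs in the main fit. Deviations of same-numbered libraries correlated at -0.018 to 0.047 over features. This measure cannot see a shift of a whole library, so it does not settle whether the samples were paired. The library factor of the relative scale was higher in replicate 1 than in replicate 2 in every group except tet-MTR4-Dox (1.01 and 1.02). With a replicate block, 30 genes fell and 5 rose in xrn1 on the relative scale, as without it, and 2 calls changed, both in xrn1 against dbp2.

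The lowest count of a processome gene was 450 reads. With 2 replicates a group the spread between libraries, pooled over groups, sets the precision.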
